A study of Mus musculus with 28 samples.

Results

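The genes described here encode proteins of the cytosolic ribosome. They were taken by name from the tables of gene values: every gene called Rpl or Rps followed by a number and at most 1 further letter, plus Rpsa, Rplp0, Rplp1 and Rplp2, with pseudogenes left out. That rule matches 83 gene names of the GENCODE M21 mouse annotation, and 4 of these are analysed here, of 31673 genes in the tables: Rplp0, Rplp1, Rplp2 and Rpsa. The other cytosolic ribosomal protein genes are not analysed here, so the 4 genes are described for themselves and not as an average of the ribosome, and their ranks and shares hold only among the genes of the tables used here. The study's question was whether chemicals can convert mouse fibroblasts to endoderm-type cells, and bulk RNA was measured in 28 libraries of 9 cell groups. MEF are fibroblasts of embryos at E13.5, taken at passage 2 (3 libraries), and MNF are neonatal dermal fibroblasts, also at passage 2 (2 libraries). MEF_ciEPC and MNF_ciEPC are chemically induced endoderm progenitor cells made from them. MEF_ciEPC has 10 libraries, in series 1 of 6 libraries between passages 2 and 22 and series 2 of 4 libraries between passages 1 and 22. MNF_ciEPC has 2 libraries, at passages 2 and 3, and their source label names the embryonic fibroblast origin while their title names the neonatal one. MEF_ciHep (3 libraries) and MNF_ciHep (2 libraries) are hepatocyte-like cells made from induced progenitors of passages 3 to 10. Comparison cells are pHep, primary hepatocytes of adult liver at passage 0 (2 libraries), ESC, embryonic stem cells of the OG2 line at passage 5 (2 libraries), and ESC_EPC, endoderm progenitors made from embryonic stem cells of passages 10 to 15 (2 libraries). All 9 groups carry an Oct4-GFP transgene on a CBA/CaJ X C57BL/6J background. The labels add a cross to 129Sv/Jae females for MEF, MEF_ciEPC, MEF_ciHep, ESC and ESC_EPC but not for MNF, MNF_ciEPC, MNF_ciHep and pHep, so strain and fibroblast origin cannot be told apart. The labels do not say that libraries of a group came from separate cultures or animals, so each p-value measures the spread between these libraries, which may be technical.

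Ribosomes join amino acids into protein, and the amount of ribosomal protein messenger RNA is among the largest classes of messenger RNA in growing cells. Rplp0 is the base of the stalk of the large subunit, a flexible arm that carries dimers of Rplp1 and Rplp2. The acidic tails of Rplp1 and Rplp2 recruit the elongation factors and help to trigger their GTP hydrolysis. Rpsa belongs to the small subunit, where it is needed for late maturation of the small subunit's RNA, and it is also known as the laminin receptor precursor. Messages of ribosomal proteins and of several translation factors begin with a run of pyrimidines, the TOP motif, through which mTORC1 signalling controls their translation. Ribosome assembly itself depends on a separate set of nucleolar biogenesis genes.

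Start regions of 3 of the 4 genes are printed from 200 bases before to 10 bases from the start that RefSeq annotates. They let the start elements of genes that moved unequally be seen side by side. The stretches are credited to RefSeq's GRCm38.p6 assembly and run 5′ to 3′ on the gene's strand. Capitals mark the motif CCAAT with its reverse complement ATTGG and the ETS-type motif CCGGAAG with its reverse complement CTTCCGG. They also mark a run of at least 8 pyrimidines near the start that RefSeq annotates. The Rplp0 stretch is chr5:115559267-115559476 on the plus strand, the Rplp2 stretch is chr7:141447451-141447660 on the plus strand, and the Rpsa stretch is chr9:120127566-120127775 on the plus strand.
Rplp0: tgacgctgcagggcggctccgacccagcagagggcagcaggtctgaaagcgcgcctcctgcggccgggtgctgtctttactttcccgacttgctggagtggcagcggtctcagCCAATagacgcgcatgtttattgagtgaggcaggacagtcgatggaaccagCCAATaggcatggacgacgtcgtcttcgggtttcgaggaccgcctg
Rplp2: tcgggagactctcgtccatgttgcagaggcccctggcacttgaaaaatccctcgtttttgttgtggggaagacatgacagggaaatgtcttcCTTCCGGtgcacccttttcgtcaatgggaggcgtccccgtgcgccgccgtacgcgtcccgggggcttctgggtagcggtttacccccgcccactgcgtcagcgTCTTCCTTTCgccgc
Rpsa: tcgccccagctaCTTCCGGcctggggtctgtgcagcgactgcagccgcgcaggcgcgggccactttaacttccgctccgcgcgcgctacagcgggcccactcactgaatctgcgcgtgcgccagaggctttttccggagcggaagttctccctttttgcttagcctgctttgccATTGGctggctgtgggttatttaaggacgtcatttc

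The printed Rplp0 stretch holds CCAAT at 2 places, and 37.4% of the 32851 promoter windows of the same table hold that motif on either strand. Rplp2 and Rpsa each hold CCGGAAG on the minus strand, a motif found in 8.86% of the windows. The pyrimidine run of Rplp2 spans the start that RefSeq annotates and is 10 bases long. A run as long between 10 bases before and 20 bases after the start occurs in 8.41% of the windows. By the same count the longest run was 7 bases in Rplp0 and 5 bases in Rpsa, lengths reached by 24.6% and 54.6% of the windows. GENCODE M21 begins Rplp2 upstream of its printed stretch and Rpsa within its printed stretch, so these counts hold for RefSeq's starts only. Runs at the GENCODE starts were not counted. CACGTG, the E-box read by MYC family factors, was in none of the 3 windows and in 7.15% of all. These matches describe letters only. In GENCODE M21, on the same assembly, Rplp0 (ENSMUSG00000067274) lies on chr5:115559467-115563727 with 7 exons, Rplp1 (ENSMUSG00000007892) on chr9:61913284-61914542 with 3 exons, Rplp2 (ENSMUSG00000025508) on chr7:141447370-141451585 with 5 exons, and Rpsa (ENSMUSG00000032518) on chr9:120127689-120132369 with 7 exons.

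Library facts bear on every level. Total expected counts ran from 1439670 to 6133147 per library. The difference between a gene's length and its effective length in the deposited tables puts the libraries into 3 length classes, near 50 bases (17 libraries: MEF_ciEPC, MEF_ciHep, MNF_ciHep and pHep), near 74 bases (9 libraries: MEF, MNF, MNF_ciEPC and ESC) and from 187 to 196 bases (both ESC_EPC libraries). Comparisons of MEF_ciEPC with MEF, of MNF_ciHep with MNF_ciEPC and of ESC_EPC with ESC cross these classes, and there the class and the cells cannot be told apart. Read or fragment length sets how much of a short message can be counted and how many reads fit more than 1 gene. In the GENCODE M21 transcripts, 60% of the windows of 50 bases in Rplp1 also occur in another gene, against 41.8% in Rplp0, 30.7% in Rplp2 and 44.0% in Rpsa. Among genes of the tables, Gm10073 shares windows with Rplp1 and stood at 0 to 192 TPM, Wdr89 shares windows with Rplp2 and stood at 1.58 to 19.5 TPM, and 0.535% of the windows of Rplp0 occur in 1 further gene. Lists of fibroblast, hepatocyte, endoderm progenitor and pluripotency markers matched most labels but not all. A list of adult hepatocyte markers did not follow the labels. Its sum was 453 and 573 TPM in ESC, above the 324 and 352 TPM of pHep. In MEF_ciHep it was 89.8 to 204 TPM, against 141 to 207 TPM in MEF. In the 2 libraries labelled MNF_ciHep, Alb was at 0 and 0.560 TPM, against 1035 to 2409 TPM in MEF_ciHep, and summed fibroblast markers stood at 2551 and 1046 TPM, against 27.1 to 45.4 TPM in MEF_ciHep. The MEF_ciEPC library of series 2 at passage 22 had pluripotency markers summing to 3711 TPM, above the 3111 and 3444 TPM of ESC, and endoderm progenitor markers at 231 TPM, the lowest of its group. In bulk RNA, fewer cells of a type and less RNA per cell cannot be told apart.

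The 4 genes were among the most abundant messages of the tables in every library, and as a sum they were highest in ESC_EPC and ESC and lowest in MEF_ciHep and pHep. Levels are in TPM, the share of a gene among all transcripts counted, scaled to a fixed total per library. Rplp1 ranked between 3 and 50 by TPM among the genes of the tables, of which 4 bear one of the 83 names of cytosolic ribosomal protein genes, Rplp0 between 8 and 69, Rplp2 between 12 and 111, and Rpsa between 22 and 185. Their summed share of TPM was 2.45% and 2.48% in ESC_EPC and 1.98% and 2.28% in ESC. The fibroblasts held 1.73% and 1.79% as MNF and 1.40% to 1.63% as MEF, followed by 1.21% to 1.87% in MEF_ciEPC and 1.21% and 1.26% in MNF_ciEPC. MNF_ciHep held 1.11% and 1.35%, pHep 0.518% and 0.810%, and MEF_ciHep 0.444% to 0.728%. The ranges of pHep and MEF_ciHep overlap each other and no other group's. Rplp1 was the highest of the 4 in 25 of 28 libraries, the exceptions being MNF_ciEPC replicate 1 and both MNF_ciHep libraries, and Rpsa was the lowest in 27 of 28, the exception being MNF_ciHep replicate 2.

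Rplp0, the base of the stalk, lay between 3524 and 5113 TPM in the 6 groups other than pHep, MEF_ciHep and ESC_EPC. Its level was 6935 and 6913 TPM in ESC_EPC and 5113 and 4489 TPM in ESC. In MNF it was 4712 and 4852 TPM, in MEF 3882, 3842 and 3524 TPM, and in MEF_ciEPC it had a lowest value of 3888, a median of 4440 and a highest value of 4905 TPM. MNF_ciEPC gave 4015 and 4017 TPM and MNF_ciHep 3588 and 4315 TPM. The ESC, MNF and MEF_ciEPC ranges overlap, as do those of MNF_ciHep with MNF_ciEPC, MEF_ciEPC and MEF, while MEF ends just under the lowest MEF_ciEPC library. The groups with abundant Alb were lower, with 2348 and 1623 TPM in pHep and 1182, 2107 and 1791 TPM in MEF_ciHep. Those last groups overlap and lie under every other library.

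Rplp1, one of the acidic stalk proteins, ran from 1779 to 9886 TPM over the 28 libraries, and Rplp0 from 1182 to 6935 TPM. ESC held 9886 and 8908 TPM and ESC_EPC 8535 and 8783 TPM. MNF followed with 7454 and 7668 TPM, then MEF with 7348, 6681 and 6062 TPM, and MEF_ciEPC with a lowest value of 4012, a median of 5382 and a highest value of 8219 TPM. The highest MEF_ciEPC library is series 2 at passage 22, the one with pluripotency markers, and without it the group ends at 6258 TPM. MNF_ciEPC gave 3907 and 4120 TPM and MNF_ciHep 3220 and 3978 TPM. MEF_ciHep had 1779, 2906 and 2716 TPM and pHep 3104 and 1803 TPM. In this order of medians, MNF and MEF do not overlap, MEF_ciEPC overlaps MNF, MEF and MNF_ciEPC, MNF_ciEPC overlaps MNF_ciHep, and pHep overlaps MEF_ciHep.

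Rplp2, the partner of Rplp1 in the stalk dimers, was near one level in the fibroblasts, both induced progenitor groups and MNF_ciHep. ESC_EPC held 5145 and 5073 TPM and ESC 4857 and 3675 TPM, the lower of which lies under the highest MEF_ciEPC library. MEF_ciEPC ran from 2250 through a median of 2777 to 3933 TPM. MNF gave 2691 and 2817 TPM, MNF_ciEPC 2545 and 2848 TPM, MEF 2840, 2597 and 2329 TPM, and MNF_ciHep 2186 and 2615 TPM. The ranges of MEF_ciEPC, MNF, MNF_ciEPC and MEF all overlap, and MNF_ciHep overlaps MEF_ciEPC, MEF and MNF_ciEPC. MEF_ciHep with 869, 1329 and 1250 TPM and pHep with 1379 and 1004 TPM overlap each other and lie lower.

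Rpsa, the small-subunit member, gave a different order for the cells of neonatal origin. Its levels were 3888 and 4003 TPM in ESC_EPC, 2919 and 2738 TPM in ESC, and 2494 and 2591 TPM in MNF. MNF_ciHep came next with 2083 and 2634 TPM, a range that holds the whole of MNF and MEF levels of 2203 and 2316 TPM, while the other MEF library stood at 2077 TPM. MEF_ciEPC ran from 1564 through a median of 1951 to 2770 TPM, and MNF_ciEPC gave 1614 and 1646 TPM. The wide MEF_ciEPC range holds MNF_ciEPC, MEF, MNF_ciHep and MNF and reaches the lower ESC library. Levels in pHep were 1270 and 749 TPM, and those in MEF_ciHep were 611, 939 and 920 TPM. The pHep and MEF_ciHep ranges overlap and lie under all other libraries.

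**Figure D1:**
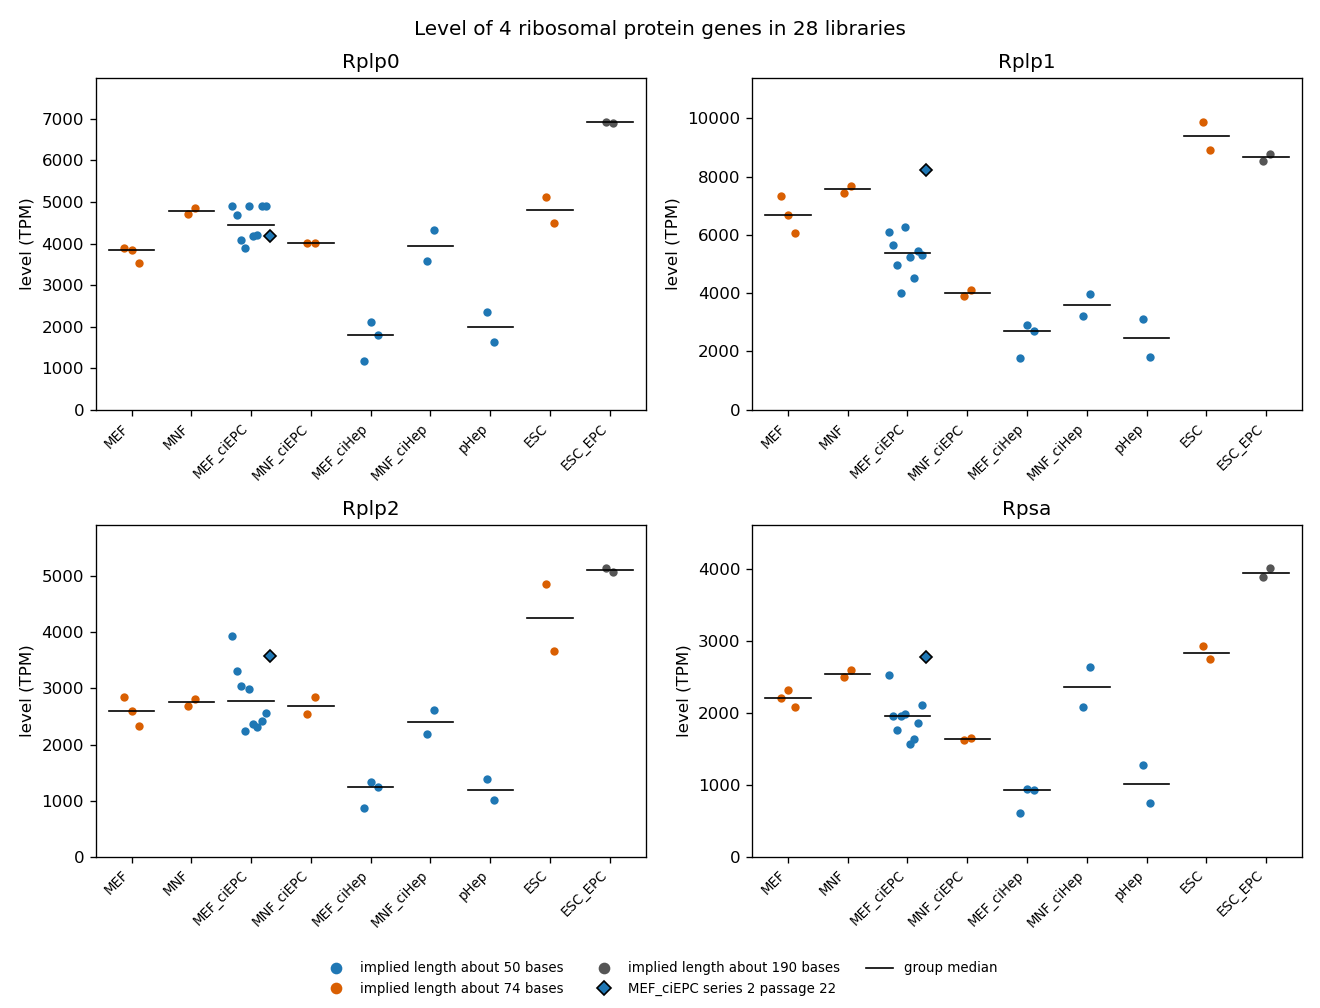
Level of each gene in TPM (vertical axis) in the 28 libraries, by cell group (horizontal axis). Each point is a library, its colour is the length class of the library, the diamond is the MEF_ciEPC library of series 2 at passage 22, and the line is the group median. MEF_ciHep and pHep sit lowest for all 4 genes, and ESC_EPC is highest for Rplp0, Rplp2 and Rpsa.

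The step from fibroblast to induced progenitor was tested in both origins. In the neonatal origin, where both groups share the length class near 74 bases, Rplp1 and Rpsa were lower in MNF_ciEPC than in MNF, whereas Rplp0 and Rplp2 did not pass the test. Rplp1 went from 7454 and 7668 TPM in MNF to 3907 and 4120 TPM in MNF_ciEPC, groups that do not overlap. Tests used edgeR's quasi-likelihood test on TMM-scaled counts with Benjamini-Hochberg adjustment over all 16061 genes tested, and a gene counts as changed at an adjusted p under 0.05. On that scale the log2 fold change of Rplp1 was −1.05 ± 0.288 (SE, 2 against 2 libraries; adjusted p = 0.00641), a level 2.06-fold lower. Rpsa, from 2494 and 2591 TPM down to 1614 and 1646 TPM, also without overlap, had a log2 fold change of −0.77 ± 0.280 (SE; adjusted p = 0.0296). The share of all genes without overlap between these groups was not counted. Rplp0 had −0.38 (95% interval −0.97 to 0.22; adjusted p = 0.283) and Rplp2 −0.18 (95% interval −0.73 to 0.37; adjusted p = 0.599). Thus 2 of 4 genes fell and none rose, beside 52.5% of all genes tested that changed in either direction and 27.3% that fell. The genes' median log2 fold change was −0.57 and that of all genes 0.00. In fits with 1 library left out, an arm holds 1 sample, which is assumed to vary like the other groups, and the log2 fold changes were −0.75 to −0.62 for Rpsa and −1.01 to −0.90 for Rplp1. Without any one of the 4 libraries Rpsa no longer passed (adjusted p from 0.117 to 0.194), and Rplp1 missed the threshold without MNF replicate 2 (adjusted p = 0.0646) or without MNF_ciEPC replicate 1 (adjusted p = 0.0561). Setting effective lengths as offsets also ended the Rpsa call (adjusted p = 0.0607).

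In the embryonic origin, no difference between MEF_ciEPC and MEF passed in any of the 4 genes by edgeR's quasi-likelihood test, and none did at an unadjusted p under 0.05. The log2 fold change was −0.40 for Rplp1 (95% interval −0.96 to 0.16), −0.34 for Rpsa (−0.89 to 0.20), −0.10 for Rplp0 (−0.64 to 0.45) and −0.01 for Rplp2 (−0.51 to 0.49). Here the libraries of each MEF_ciEPC series were summed, so that 2 samples stand against 3, and 46.3% of all genes tested changed. These groups differ in length class, and the signs for Rplp0 and Rplp2 turned under other settings. Whether the step differs between the origins was tested by the difference of both fold changes, which no gene passed: −0.65 for Rplp1 (95% interval −1.47 to 0.17), −0.43 for Rpsa, −0.28 for Rplp0 and −0.17 for Rplp2, beside 17.7% of all genes tested. No difference between the fibroblasts themselves passed: MNF minus MEF gave log2 fold changes of 0.19 for Rplp0, 0.13 for Rpsa, 0.09 for Rplp1 and 0.04 for Rplp2, with adjusted p-values of 0.635 or more, while 26.2% of all genes tested differed between these fibroblasts. Their 95% intervals reach 0.73 for Rplp0, 0.67 for Rpsa, 0.64 for Rplp1 and 0.54 for Rplp2 at the upper end.

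All 4 genes were lower in MEF_ciHep than in MEF_ciEPC, each by close to the same factor, and both groups share the length class near 50 bases. Rplp0, at 3888 to 4905 TPM in MEF_ciEPC and 1182, 2107 and 1791 TPM in MEF_ciHep, had a log2 fold change of −1.11 ± 0.252 (SE; adjusted p = 0.00204). For Rplp2 the change was −1.05 ± 0.233 (SE; adjusted p = 0.00167). Rpsa had −1.02 ± 0.251 (SE; adjusted p = 0.00368) and Rplp1 −0.93 ± 0.257 (SE; adjusted p = 0.00778). No MEF_ciHep library reached the lowest MEF_ciEPC library for any of the 4 genes, and the share of all genes so separated was not counted. The background is wide, since 46.8% of all genes tested changed and 23.5% fell, but the genes' median log2 fold change was −1.04 while the median over all genes was −0.08. Leaving out the MEF_ciEPC library of series 2 at passage 22 kept all 4 calls, with Rplp1 at −0.86 (adjusted p = 0.0113). Leaving out the whole of series 2 ended the call for Rplp1 (adjusted p = 0.0521). The summed level of 16 cell cycle genes moved with these genes, from 1678 to 4348 TPM in MEF_ciEPC down to 296 to 501 TPM in MEF_ciHep, and its part in the result was not tested.

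In the neonatal origin no such drop passed the test. The libraries labelled MNF_ciHep held little hepatocyte marker RNA, 27.6 and 105 TPM in sum against 49.9 and 140 TPM in MNF_ciEPC and 11525 to 24673 TPM in MEF_ciHep, and 4 of 5 fibroblast markers were higher in them than in MNF_ciEPC, with sums of 2551 and 1046 against 589 and 478 TPM. The part of these markers in the result was not tested. Between MNF_ciEPC and MNF_ciHep the log2 fold change was 0.08 for Rplp1 (95% interval −0.52 to 0.69), 0.00 for Rplp2 (−0.55 to 0.55) and −0.08 for Rplp0 (−0.68 to 0.51). Rpsa, at 1614 and 1646 TPM in MNF_ciEPC and 2083 and 2634 TPM in MNF_ciHep, had 0.71 (95% interval 0.12 to 1.31; adjusted p = 0.0531 by edgeR's quasi-likelihood test), with no overlap of levels. The share of all genes without overlap was not counted. No gene passed in this comparison, 1 had an unadjusted p under 0.05, and 40.7% of all genes tested changed. The Rpsa value lies next to the threshold: it passed with DESeq2's size factors in edgeR (adjusted p = 0.0341), with a count minimum of 50 (adjusted p = 0.0378) and with DESeq2's own test (adjusted p = 0.00917). The comparison crosses length classes.

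The difference between the origins in this step was itself tested and passed for 3 of 4 genes. The neonatal log2 fold change exceeded the embryonic one by 1.73 ± 0.377 for Rpsa (SE; adjusted p = 0.00257), by 1.06 ± 0.349 for Rplp2 (SE; adjusted p = 0.0291) and by 1.03 ± 0.378 for Rplp0 (SE; adjusted p = 0.0474), all by edgeR's quasi-likelihood test. For Rplp1 the difference was 1.01 ± 0.386 (SE; adjusted p = 0.0540). By comparison 34.1% of all genes tested passed and 19.8% passed in that direction, and the median over all genes was 0.18 against 1.04 for the 4 genes. With 1 sample left out at a time Rpsa passed in each of the 9 fits, with adjusted p from 0.00364 to 0.0152. Rplp0 passed without MEF_ciHep replicate 2 and missed in the 8 others (adjusted p from 0.0594 to 0.145), and Rplp2 missed without either MEF_ciEPC series, either MNF_ciEPC library, MEF_ciHep replicate 1 or MNF_ciHep replicate 2 (adjusted p from 0.0556 to 0.109). Rplp1 passed without MEF_ciHep replicate 2 (adjusted p = 0.0469). With a replicate block only Rpsa passed, as Rplp2 had 1.02 (adjusted p = 0.0601) and Rplp0 0.998 (adjusted p = 0.0879). MNF_ciEPC is in another length class than the 3 other groups of this comparison, so origin, strain and length class cannot be told apart in it. The low hepatocyte marker sums of MNF_ciHep, given above, fall on the neonatal side, where their part was not tested.

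A direct comparison of the hepatocyte-like groups stays within a length class. By the labels these groups differ in strain, which cannot be told apart from their origin. Rpsa was higher in the libraries labelled MNF_ciHep (2083 and 2634 TPM) than in MEF_ciHep (611, 939 and 920 TPM), with a log2 fold change of 1.43 ± 0.251 (SE; adjusted p = 0.000288), or 2.70-fold. Rplp0 was higher by 0.94 ± 0.253 (SE; adjusted p = 0.00661) and Rplp2 by 0.93 ± 0.234 (SE; adjusted p = 0.00437) on the log2 scale. Rplp1, at 3220 and 3978 against 1779, 2906 and 2716 TPM, did not pass, with 0.46 (95% interval −0.09 to 1.01; adjusted p = 0.161). The groups do not overlap in any of the 4 genes, and the share of all genes without overlap was not counted. So 3 of 4 genes were higher by edgeR's quasi-likelihood test, beside 46.6% of all genes tested that changed and 24.5% that were higher. Without MNF_ciHep replicate 2, Rpsa alone passed, with Rplp2 at an adjusted p of 0.0504 and Rplp0 at 0.0692. The MNF_ciHep libraries have Alb at 0 or 0.560 TPM and hold more fibroblast marker and cell cycle RNA (1248 and 1426 TPM for 16 cell cycle genes, against 296 to 501 TPM), and the part of these in the result was not tested.

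Against primary hepatocytes, no difference of MEF_ciHep passed in any of the 4 genes, while MNF_ciHep was higher in 2. By the labels MEF_ciHep and pHep differ in strain, which cannot be told apart from the cells. The MEF_ciHep minus pHep log2 fold changes were −0.43 for Rpsa (95% interval −0.97 to 0.11), −0.34 for Rplp0 (−0.88 to 0.20), −0.24 for Rplp2 (−0.74 to 0.26) and −0.13 for Rplp1 (−0.68 to 0.43), and 35.9% of all genes tested changed. The pHep pair is uneven, and which of its libraries is used decides these values. Without pHep replicate 2, the lower one, Rpsa (−0.89; adjusted p = 0.00821) and Rplp0 (−0.76; adjusted p = 0.0353) passed as lower in MEF_ciHep, and without pHep replicate 1 all 4 values were positive, from 0.22 to 0.54. In MNF_ciHep, Rpsa was higher than in pHep by 1.003 ± 0.282 on the log2 scale (SE; adjusted p = 0.00992). Rplp2 was higher by 0.69 ± 0.261 (SE; adjusted p = 0.0456), Rplp0 had 0.60 (95% interval −0.0002 to 1.196; adjusted p = 0.1002) and Rplp1 0.33 (95% interval −0.28 to 0.94; adjusted p = 0.378). Of all genes tested 41.9% changed and 23.0% were higher, and the median over all genes was 0.11. The number of the 4 genes that passed by edgeR's quasi-likelihood test was 4 without pHep replicate 1, 0 without pHep replicate 2 or without MNF_ciHep replicate 2, and 1 without MNF_ciHep replicate 1. The call for Rplp2 also ended without a low-count filter (adjusted p = 0.0547) and with TMM factors taken without the 4 genes (adjusted p = 0.0590).

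**Figure D2:**
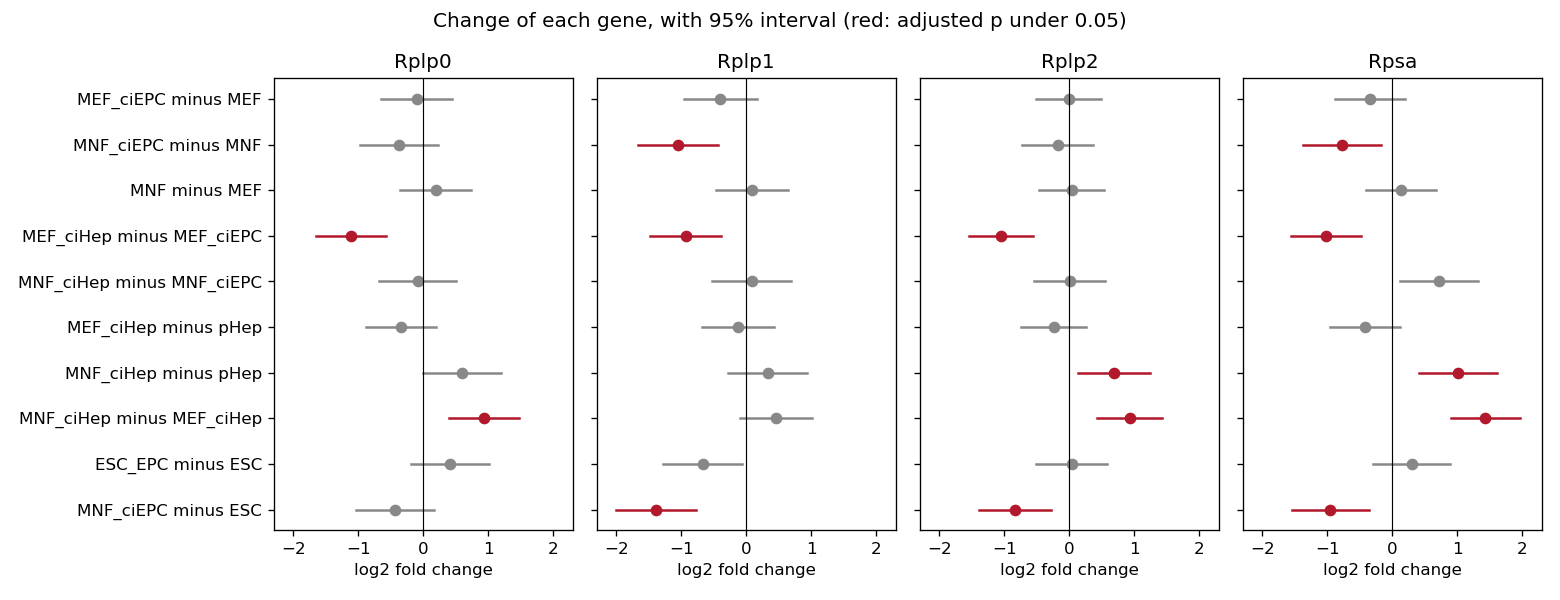
Log2 fold change of each gene from TMM-scaled counts (horizontal axis) in 10 comparisons (vertical axis), with the 95% interval as a bar, red where the adjusted p by edgeR's quasi-likelihood test was under 0.05. All 4 genes are red and near −1 for MEF_ciHep minus MEF_ciEPC, and Rpsa reaches 1.43 for MNF_ciHep minus MEF_ciHep.

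Stem-cell-derived progenitors had high levels of the 4 genes, and none of the 4 passed the test against ESC. In ESC_EPC against ESC, Rplp1 was at 8535 and 8783 against 9886 and 8908 TPM, with a log2 fold change of −0.67 (95% interval −1.28 to −0.06; adjusted p = 0.0707 by edgeR's quasi-likelihood test). Rplp0, at 6935 and 6913 against 5113 and 4489 TPM, had 0.41 (95% interval −0.18 to 1.01; adjusted p = 0.253), Rpsa 0.30 (−0.29 to 0.89) and Rplp2 0.04 (−0.51 to 0.58). In TPM none of the 4 genes overlaps between these groups, and the share of all genes without overlap was not counted. Rplp2, at 5145 and 5073 against 4857 and 3675 TPM, was thus higher in both ESC_EPC libraries by TPM. Its fold change from counts was near 0. By unadjusted p under 0.05 there was 1 gene, Rplp1, and 43.9% of all genes tested changed. DESeq2 called Rplp1 lower (−0.69; adjusted p = 0.0305), and with effective lengths as offsets its value shrank to −0.29 (adjusted p = 0.461). ESC_EPC is the only group in the longest length class, so class and cells cannot be told apart here.

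Fibroblast-derived progenitors compared with ESC within the class near 74 bases were lower in 3 of the 4 genes. By the labels MNF_ciEPC and ESC differ in strain, so strain and cells cannot be told apart here. Rplp1, at 3907 and 4120 TPM in MNF_ciEPC against 9886 and 8908 TPM in ESC, had a log2 fold change of −1.38 ± 0.291 (SE; adjusted p = 0.00110), or 2.61-fold lower. Rpsa had −0.95 ± 0.281 (SE; adjusted p = 0.0111) and Rplp2 −0.84 ± 0.260 (SE; adjusted p = 0.0147) on the log2 scale, and Rplp0 had −0.43 (95% interval −1.03 to 0.16; adjusted p = 0.222). None of the 4 genes overlaps between the groups in TPM, and the share of all genes without overlap was not counted. Of all genes tested 47.9% changed and 24.2% were lower by edgeR's quasi-likelihood test, with a median over all genes of 0.00 against −0.89 for the 4 genes. Rplp1 passed without any 1 library. Rplp2 did not pass without ESC replicate 1 (adjusted p = 0.0837) or without MNF_ciEPC replicate 1 (adjusted p = 0.110), nor did Rpsa without MNF_ciEPC replicate 1 (adjusted p = 0.0687) or replicate 2 (adjusted p = 0.0660).

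The stalk genes did not move in a fixed ratio. TPM is scaled by length, so levels of different genes can be set against each other, although length class and shared windows touch each gene by a different amount, and these ratios are given as a description with no test. Within the class near 74 bases the ratio of Rplp1 to Rplp0 was 1.93 and 1.98 in ESC, 1.72 to 1.89 in MEF, 1.58 in both MNF libraries, and 0.973 and 1.03 in MNF_ciEPC. In the class near 50 bases it was 1.38 to 1.52 in MEF_ciHep, 1.11 and 1.32 in pHep, 0.898 and 0.922 in MNF_ciHep, and 1.03 to 1.28 in 9 MEF_ciEPC libraries. The MEF_ciEPC library of series 2 at passage 22 stood apart at 1.97, in the range of ESC. ESC_EPC had 1.23 and 1.27. Both groups made from neonatal fibroblasts, MNF_ciEPC and MNF_ciHep, thus had the lowest ratios of their classes. Rplp2 relative to Rplp0 ran by group from 0.571 and 0.581 in MNF to 0.819 and 0.950 in ESC, while MEF_ciEPC alone ran from 0.493 to 0.856.

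The balance between the small-subunit gene and the stalk base was also uneven. Rpsa relative to Rplp0 was 0.567 to 0.603 in MEF, 0.529 and 0.534 in MNF, 0.402 and 0.410 in MNF_ciEPC and 0.571 and 0.610 in ESC, all in the class near 74 bases. In the class near 50 bases it was 0.373 to 0.516 in 9 MEF_ciEPC libraries and 0.663 in the library of series 2 at passage 22. MEF_ciHep held 0.446 to 0.517, pHep 0.461 and 0.541, and MNF_ciHep 0.581 and 0.610. MNF_ciHep is thus the group in which Rplp1 was lowest and Rpsa highest relative to Rplp0 within that class, apart from the library of series 2 at passage 22. ESC_EPC had 0.561 and 0.579.

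**Figure D3:**
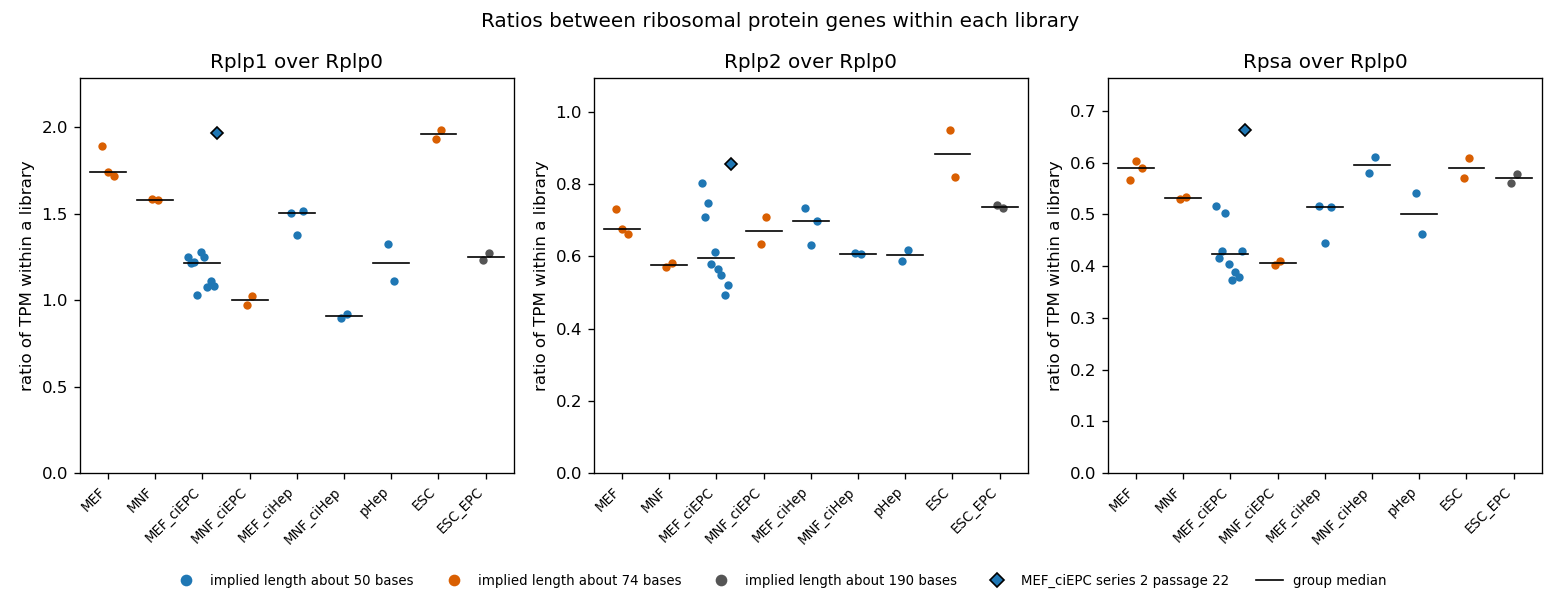
Ratio of TPM levels (vertical axis) of Rplp1, Rplp2 and Rpsa to Rplp0 in each of the 28 libraries, by cell group (horizontal axis), with colour for the length class, a diamond for the MEF_ciEPC library of series 2 at passage 22 and a line at the group median. For Rplp1 the diamond at 1.97 lies above the other MEF_ciEPC libraries, which end at 1.28.

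No trend with passage passed the test in MEF_ciEPC. In series 1, Rplp1 was at 6107, 5667, 4980, 4012, 6258 and 5230 TPM at passages 2, 3, 4, 6, 10 and 22. In series 2 it was at 4513, 5453, 5311 and 8219 TPM at passages 1, 5, 10 and 22. The last library is the highest of both series, and the latest library of series 1 is not. Rplp0 ran from 3888 to 4900 TPM in series 1 and from 4175 to 4905 TPM in series 2, and at passage 22 both series stood at 4193 and 4175 TPM. Rplp2 was highest at passage 2 of series 1 with 3933 TPM and next at passage 22 of series 2 with 3574 TPM, and Rpsa was highest in the same libraries in the other order, with 2526 and 2770 TPM. In a fit with series and log2 passage as terms, the log2 change per doubling of passage was 0.11 ± 0.0872 for Rplp1 (SE, 10 libraries; adjusted p = 0.643), 0.06 for Rpsa, 0.04 for Rplp2 and 0.01 for Rplp0, and none passed by edgeR's quasi-likelihood test, nor at an unadjusted p under 0.05. Only 0.0242% of the 12390 genes tested changed with passage. Each passage of a series is 1 library and the series are read as 2 lines of culture, so this trend has few independent samples. The length that sets the class was 50.53 or 50.54 bases in series 1 at passages 2 to 6 and in series 2 at passage 22. In the other MEF_ciEPC libraries it was 50.59 bases. Within series 1 this split falls between early and late passages, so this length and passage cannot be told apart there. Without the library of series 2 at passage 22 the signs of Rplp2 and Rpsa turned, to −0.06 and −0.03.

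**Figure D4:**
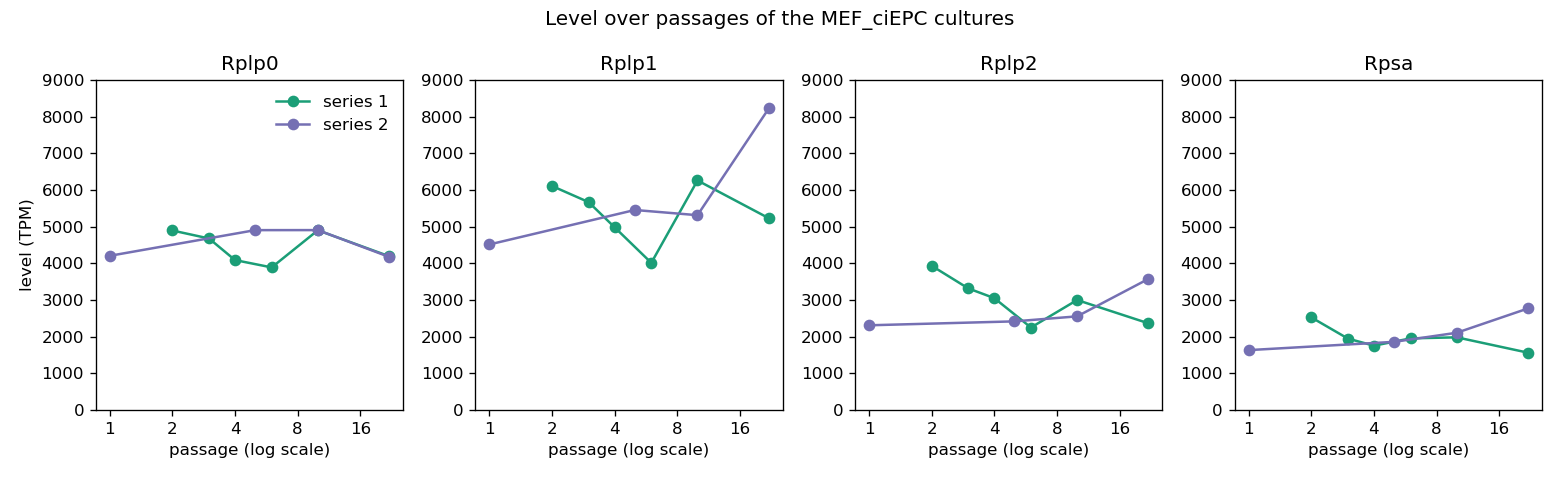
Level in TPM (vertical axis) of each gene against passage (horizontal axis, log scale) in the 10 MEF_ciEPC libraries, series 1 and series 2 in different colours with lines joining libraries of a series. At passage 22 Rplp1 is at 8219 TPM in series 2 and at 5230 TPM in series 1, while Rplp0 is at 4175 and 4193 TPM.

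Translation factors whose messages share the TOP motif gave counts that differed by comparison, to be read beside the share of all genes tested that changed: 46.8% in MEF_ciHep against MEF_ciEPC, 46.6% in MNF_ciHep against MEF_ciHep, 47.9% in MNF_ciEPC against ESC, 41.9% in MNF_ciHep against pHep, 52.5% in MNF_ciEPC against MNF, 43.9% in ESC_EPC against ESC and 26.2% in MNF against MEF. In MEF_ciHep against MEF_ciEPC, where all 4 ribosomal protein genes fell, 14 of 16 such factors fell and none rose, with a median log2 fold change of −0.90. Among them, by edgeR's quasi-likelihood test, were Eef1d, a subunit of the exchange factor for elongation factor 1A (−0.9995), Naca, of the nascent chain complex (−1.07), Hnrnpa1 (−1.79) and Eif3e, a subunit of initiation factor 3 (−0.78). In MNF_ciHep against MEF_ciHep 13 of 16 were higher and none lower, with a median of 0.70, Eef1d at 1.40, Hnrnpa1 at 1.47, Eef1g at 1.17 and Eif3h at 0.73. In MNF_ciEPC against ESC 9 of 16 were lower and none higher, Nap1l1 at −1.90 and Eef1g at −1.26 among them. MNF_ciHep against pHep gave 11 higher and 1 lower, with Pabpc1, the poly(A)-binding protein, at 1.37 and Eif3f at 1.16. In MNF_ciEPC against MNF, however, 2 rose and 3 fell, Hnrnpa1 by 1.10 upward and Eif3e by −0.83, with a median of −0.28. In ESC_EPC against ESC 5 rose and 1 fell, led by Tpt1 (1.40) and Eef2 (0.89), while Hnrnpa1 was at −1.13.

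Ribosome assembly genes went with the ribosomal protein genes in some comparisons and against them in others. Of 45 biogenesis genes, 38 fell and 1 rose in MEF_ciHep against MEF_ciEPC, with a median log2 fold change of −0.99. Gnl3, a nucleolar GTPase, was at −1.51 and Nolc1, a nucleolar chaperone of small nucleolar particles, at −1.42, and the gene that rose was Sbds, a late factor of the large subunit, at 1.23. In MNF_ciEPC against MNF, where Rplp1 and Rpsa fell, 33 of the 45 rose and none fell, with a median of 0.96, Nhp2, a core protein of pseudouridylation particles, at 1.80 and Imp4 at 1.47. All 16 cell cycle genes rose in the same comparison, with a median of 2.52, Mcm5 at 3.30 and Mcm3 at 3.18. Between the fibroblasts, where none of the 4 ribosomal protein genes passed, 37 of the 45 biogenesis genes were lower in MNF than in MEF, with a median of −1.19. In MNF_ciEPC against ESC 34 were lower, Dkc1, the pseudouridine synthase of these particles, at −3.29 among them. In MNF_ciHep against MEF_ciHep 15 were higher and 3 lower, with Fbl, the methyltransferase of ribosomal RNA, at 1.08 and Eif6, which keeps new large subunits from joining too early, at −1.19. Of 77 mitochondrial ribosomal protein genes, 45 rose and 6 fell in MNF_ciEPC against MNF, 2 rose and 34 fell in MEF_ciHep against MEF_ciEPC, and 5 rose and 36 fell in ESC_EPC against ESC, where 52.5%, 46.8% and 43.9% of all genes tested changed. Of 14 genes of initiation and its control, 6 rose and 3 fell, 1 rose and 3 fell, and 2 rose and 3 fell in the same comparisons. No gene of any of these lists passed in the fit of passage. The lists were compared with the ribosomal protein genes by counts and medians only.

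**Figure D5:**
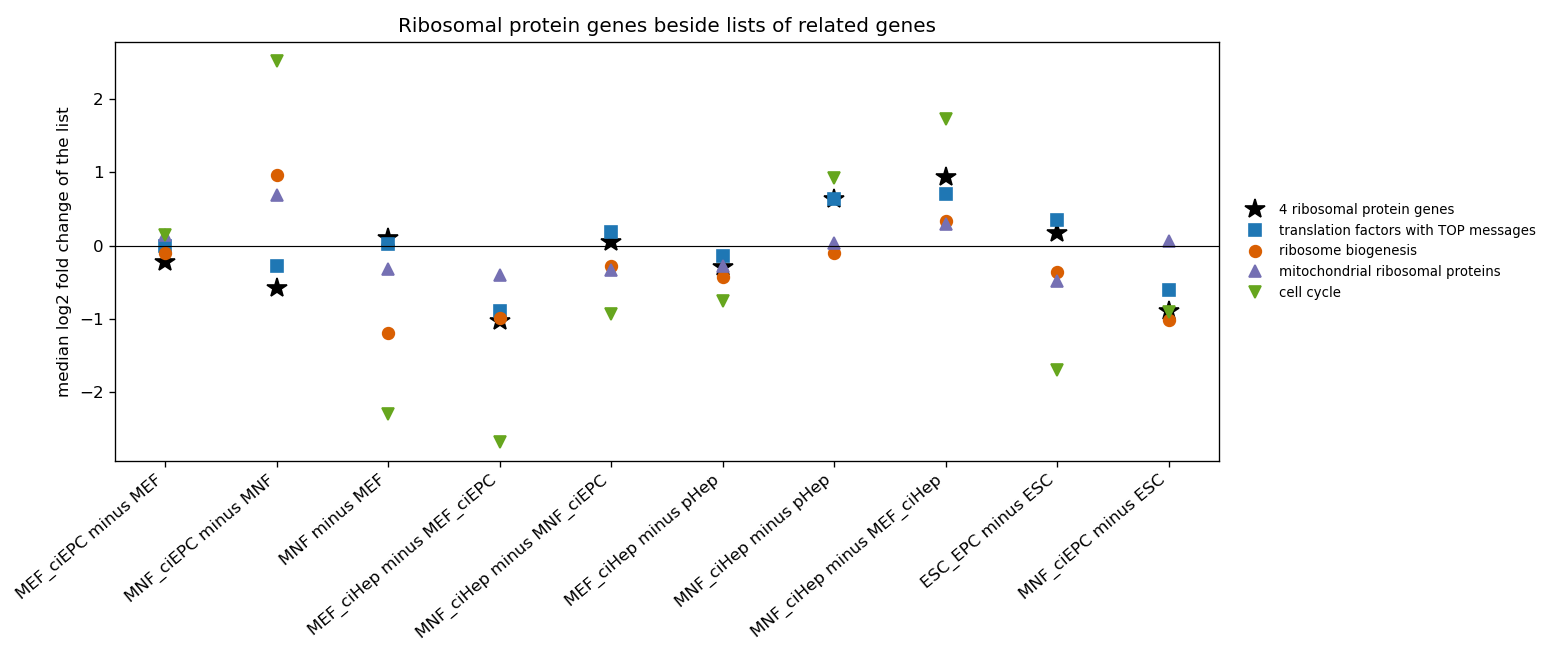
Median log2 fold change (vertical axis) of the 4 ribosomal protein genes, the TOP translation factors, the ribosome biogenesis genes, the mitochondrial ribosomal protein genes and the cell cycle genes in each comparison (horizontal axis). For MEF_ciHep minus MEF_ciEPC the 4 genes lie at −1.04, the TOP factors at −0.90 and the biogenesis genes at −0.99, while for MNF_ciEPC minus MNF the 4 genes lie at −0.57 and the biogenesis genes at 0.96.

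Fau also encodes a cytosolic ribosomal protein, of the small subunit, as a fusion with a ubiquitin-like domain, and falls outside the naming rule. It fell by 0.58 on the log2 scale in MEF_ciHep against MEF_ciEPC (adjusted p = 0.0178 by edgeR's quasi-likelihood test), where the 4 genes also fell, and by 1.43 in MNF_ciHep against MNF_ciEPC (adjusted p = 0.000122), where none of the 4 genes passed. In MNF_ciEPC against MNF it did not pass, with 0.23 (adjusted p = 0.365). In ESC_EPC against ESC Fau was higher, with 0.85 (adjusted p = 0.00369). Myc, a factor known to raise transcription of ribosomal protein and biogenesis genes, rose by 2.29 on the log2 scale in MEF_ciHep against MEF_ciEPC (adjusted p = 0.000112), the comparison in which the 4 genes fell, and was lower in MNF_ciHep than in MEF_ciHep (−1.46; adjusted p = 0.00376), where Rplp0, Rplp2 and Rpsa were higher. Myc was also lower in MEF_ciEPC than in MEF (−1.62; adjusted p = 0.00146) and higher in ESC_EPC than in ESC (3.26; adjusted p = 7.8e-05), comparisons in which none of the 4 genes passed. Mycn, its relative of embryonic cells, rose by 2.94 in MNF_ciEPC against MNF (adjusted p = 0.0128) and was lower in MNF_ciEPC than in ESC (−2.73; adjusted p = 0.00696). Mycn stood at 3.08 and 0 TPM in MNF and at 10.2 and 15.8 TPM in MNF_ciEPC, so its rise starts from near 0. In ESC_EPC against ESC Mycn had −1.43 (adjusted p = 0.117), opposite in sign to Myc.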

How the data were processed

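Bulk RNA was measured in 28 libraries of 9 groups, from total RNA extracted with Trizol and prepared with an Illumina TruSeq kit, per the labels' protocols. The authors deposited expected counts and TPM per gene for each library, and joint tables of both, made with RSEM 1.2.4 on mm10, per the submitters' processing notes. Which aligner and which annotation were used is not given in the sources used here. The deposited length and effective length per gene (other values) gave each library's length class.

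Expected counts were rounded to whole numbers. The 10 MEF_ciEPC libraries were summed within each of the 2 series, because a series is read as 1 line of culture, which left 20 samples in 1 fit. Genes passed edgeR's filterByExpr with a minimum count of 10, TMM scaling was used, and groups were compared with edgeR's quasi-likelihood test (edgeR 4.0.16, limma 3.58.1, R 4.3.3), with Benjamini-Hochberg adjustment over all 16061 genes tested. No fold minimum was set. Origin differences are contrasts of fold changes in the same fit and were added after seeing the data. The passage fit used the 10 MEF_ciEPC libraries singly with series and log2 passage as terms. TPM levels and ratios are as deposited. The fit was also run on simulated counts, drawn independently with the spread estimated from these libraries. Such counts cannot show whether libraries of a group came from separate cultures. Alternatives were DESeq2's size factors in edgeR, no low-count filter, a minimum count of 50, effective-length offsets, TMM without the 4 genes, a replicate block, DESeq2 1.42.0, limma on log2(TPM + 1) and log2(TPM + 0.1) for genes that reach 1 TPM, and fits with libraries left out. Depth of 1439670 to 6133147 expected counts gave each of the 4 genes 474 counts or more in each library.

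All 4 genes are named in every comparison. Genes outside the rule are Fau, Myc and Mycn and, per comparison, up to 4 genes of each list with the smallest adjusted p. The genes, the lists (biogenesis, TOP translation factors, initiation and control, mitochondrial ribosomal proteins, cell cycle and cell type markers) and the comparisons were chosen with earlier results of these data known. Start regions come from RefSeq's promoter table for GRCm38.p6, which had 3 of the 4 genes, and were searched on both strands with Python 3.11.15, and gene positions come from GENCODE M21.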

Additional observations from a re-analysis of the deposited data

Results flagged for a closer look

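In MEF_ciEPC, 1 library stood apart from the 9 others in 3 of 8 measures checked for gaps between libraries. It is series 2 at passage 22, with Rplp1 at 8219 TPM, a ratio of Rplp1 to Rplp0 of 1.97 and a ratio of Rpsa to Rplp0 of 0.663. The gap to the next library was 0.466, 0.738 and 0.507 of the group's whole range, where 0.466 is the 95% critical value for 10 libraries, so Rplp1's own level is at the limit. Chance alone puts about 1 in 20 groups past that value, and these measures share genes. The library also holds pluripotency markers at 3711 TPM in sum, ribosome biogenesis genes at 15180 TPM against a group median of 7836 TPM, and cell cycle genes at 4348 TPM, and their part in its ribosomal protein levels was not tested. Its Rplp0, at 4175 TPM, lies inside the range of the other 9. The length that sets its class was 50.53 bases, against 50.59 bases in the rest of series 2, and the part of this was not tested.

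The step from induced progenitor to hepatocyte-like cell differed between the fibroblast origins in 3 genes by edgeR's quasi-likelihood test of the difference: 1.73 for Rpsa, 1.06 for Rplp2 and 1.03 for Rplp0 on the log2 scale, each higher in the neonatal origin, beside 34.1% of all genes tested that passed and 19.8% that passed in this direction. With 1 sample left out at a time Rplp0 missed in 8 of 9 fits, and with a replicate block only Rpsa passed. Length class and strain differ with origin there and cannot be told apart from it. The libraries labelled MNF_ciHep also held hepatocyte markers at 27.6 and 105 TPM in sum, against 11525 to 24673 TPM in MEF_ciHep, and fibroblast markers at 2551 and 1046 TPM, and the part of these was not tested.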

How the results depend on the processing

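Under settings other than leaving out a sample, 16 counts of passing genes or group ratios moved past a set margin and 298 did not. A count that stayed above 0 and changed by a small factor was filed among the 298. So was a ratio that changed by less than the combined spread of its groups, so the 298 can hold changed values. Among values of single genes, 556 kept direction and call, 7 gained the call, 8 lost it and 25 changed sign. In MNF_ciEPC against MNF the number of genes that fell went from 2 to 1 with effective-length offsets. In MNF_ciHep against MNF_ciEPC the number that rose went from 0 to 1 with DESeq2's size factors, a minimum count of 50 and DESeq2 itself. In MNF_ciHep against pHep it went from 2 to 1 without a low-count filter, with TMM without the 4 genes and with a replicate block. In ESC_EPC against ESC the number that fell went from 0 to 1 with DESeq2. The summed TPM relative to MEF, without the highest gene of each library, was 1.10 in MEF_ciEPC (0.984 with all 4) and 0.971 in MNF_ciEPC (0.811). It was 0.979 in MNF_ciHep (0.808) and 1.87 in ESC_EPC (1.62). The gene left out was Rplp0 in MNF_ciEPC replicate 1 and both MNF_ciHep libraries, and Rplp1 in all other libraries. The MNF_ciEPC and MNF_ciHep ratios thus set different genes against each other. As a share of counts, the sum relative to MEF was 0.888 in MNF_ciEPC, 0.987 in MNF_ciHep and 1.76 in ESC_EPC.

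No pairing by replicate number was seen: of 73 pairs of same-numbered samples, 0 had deviations that correlate above 0.1 (from −0.163 to 0.0850). Deviations within the smallest groups mirror each other, so this check cannot exclude pairing. With a replicate block, the origin difference in the step to hepatocyte-like cells passed in 1 gene in place of 3. It changed no other call beyond the one against pHep given above.

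Values near 0 changed sign. In MEF_ciEPC against MEF, Rplp2 was 0.0561 without a filter and 0.14 with limma at either pseudocount, and Rplp0 was 0.0862 with offsets and 0.26 with limma. In MNF against MEF, Rplp2 was −0.0451 with offsets. In MNF_ciHep against MNF_ciEPC, Rplp1 was −0.000698 without a filter, −0.12 with offsets and −0.16 with limma, Rplp2 was −0.0817, −0.13 and −0.17 under these and −0.0107 with TMM without the 4 genes, and Rplp0 was 0.0152 with offsets. In MEF_ciHep against pHep, Rplp1 was 0.0282 with limma. In the passage fit, Rplp2 was −0.00649 and Rplp0 −0.00906 with limma, and without series 2 passage 22 Rplp2 was −0.0582 and Rpsa −0.0286. None of these values passed a test, and the cause was not tested.

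Leaving out 1 sample at a time, where a lone sample of a group is assumed to vary like the other groups, gave 0 to 1 genes that fell in MNF_ciEPC against MNF, 3 to 4 in MEF_ciHep against MEF_ciEPC, 0 to 2 in MEF_ciHep against pHep and 1 to 3 in MNF_ciEPC against ESC. It gave 0 to 4 that were higher in MNF_ciHep against pHep, 1 to 3 in MNF_ciHep against MEF_ciHep and 1 to 4 for the origin difference in the step to hepatocyte-like cells. Signs turned for Rplp2 (−0.13 to 0.11) and Rplp0 (−0.19 to 0.00243) in MEF_ciEPC against MEF, Rplp1 (−0.0190 to 0.21) and Rplp2 (−0.0913 to 0.16) in MNF against MEF, Rplp1 (−0.17 to 0.11) and Rplp2 (−0.24 to 0.0348) in MNF_ciHep against MNF_ciEPC, Rplp1 (−0.15 to 0.99) in MNF_ciHep against pHep and Rplp2 (−0.0499 to 0.16) in ESC_EPC against ESC. In MEF_ciHep against pHep they turned for Rplp1 (−0.60 to 0.54), Rplp2 (−0.64 to 0.29), Rpsa (−0.89 to 0.22) and Rplp0 (−0.76 to 0.22).

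With limma on log2(TPM + 1) the share of higher genes among all that changed was 65.3% in MEF_ciEPC against MEF (52.6% with edgeR), 35.2% in MEF_ciHep against MEF_ciEPC (49.8%) and 64.8% in MNF_ciHep against pHep (54.9%). Most groups hold 2 or 3 libraries, and each of the 4 genes had 474 counts or more in each library.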
